A study of Mus musculus with 6 samples.

Results

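The SRC-family tyrosine kinases Blk, Fyn, Fgr, Src and Yes1, together with Csk, the kinase that holds them in check, were followed in mouse pre-B leukemia cells with and without added Blnk. These 6 genes, chosen by name, are 6 of 19938 genes measured, and each had exactly 1 probe annotated to it alone, so no choice between probes arose. The samples were pre-B cells transformed with BCR-ABL1, a fusion kinase that drives Philadelphia chromosome-positive leukemia, from Balb/c mice labelled as 4 weeks old. All carried the genotype label Blnk KO, controls included. The control group (3 samples) was transduced with pMIG, a retroviral vector with a GFP marker, and the other group (3 samples) with Blnk (Slp65). Per the series' design text, cells positive for GFP were collected by sorting at 5 days, and total RNA of each sample was hybridised to 1 Affymetrix array. Nothing in the labels ties a sample to its own culture or animal, so p-values cover only how far these arrays differ from each other, possibly for technical reasons.

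SRC-family kinases sit at the inner face of the plasma membrane, where they phosphorylate the signalling tails of the pre-B cell receptor and so start the cascade that runs through SYK and the adaptor BLNK. Each has an inhibitory tyrosine near its C-terminus. CSK phosphorylates that tyrosine and closes the kinase, and membrane phosphatases such as CD45 remove the phosphate and open it again. BLK is largely a kinase of B-lineage cells and FGR of myeloid cells, whereas FYN, SRC and YES1 are made in many tissues. Transcript arrays read the amount of RNA and carry no information on these phosphorylation states.

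The transduced gene was higher in every sample given it. The Blnk probe read intensities of 972, 926 and 1013 in the pMIG samples and 2714, 3342 and 3022 in the Blnk samples, a 3.11-fold difference (log2 change 1.64, SE 0.0914; limma adjusted p = 0.000101). The pMIG values are far from the floor of the array although these cells are labelled Blnk KO. The labels leave unstated which part of the transcript the probe reads, so it shows the transduction and does not check the knockout. Most B-lineage markers were bright in both groups, for example Igll1, part of the surrogate light chain (10485 ± 350 with pMIG and 9221 ± 222 with Blnk; SD, n = 3), and Cd24a, a surface protein of immature B cells (5616 ± 451 and 6319 ± 452). Of 9 B-lineage markers measured, 1 lay below the median gene intensity of 77.4. This was Dntt, the nucleotide-adding enzyme of pro-B cells, at 24.3 ± 1.15 and 24.0 ± 4.00. Among these 9 markers 1 rose, the receptor chain Cd79a, and 1 fell, Vpreb1, the other part of the surrogate light chain (from 1746 ± 122 to 1090 ± 116; limma adjusted p = 0.00976).

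Of the 6 genes, 1 rose with Blnk, 0 fell and 5 did not pass an adjusted p of 0.05 in the fit over all genes. Across all 19938 genes 3.61% passed, 2.51% upward and 1.10% downward. Blk, largely a kinase of B-lineage cells, was the one that rose. Values of the pMIG and Blnk groups did not overlap for 4 of the 6 genes, higher with Blnk for Blk, Src and Csk and lower for Fyn. Over all genes 20.0% had groups that did not overlap, 11.8% higher and 8.15% lower. The median log2 change of the 6 genes was 0.06, beside 0 for all genes.

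**Figure D1:**
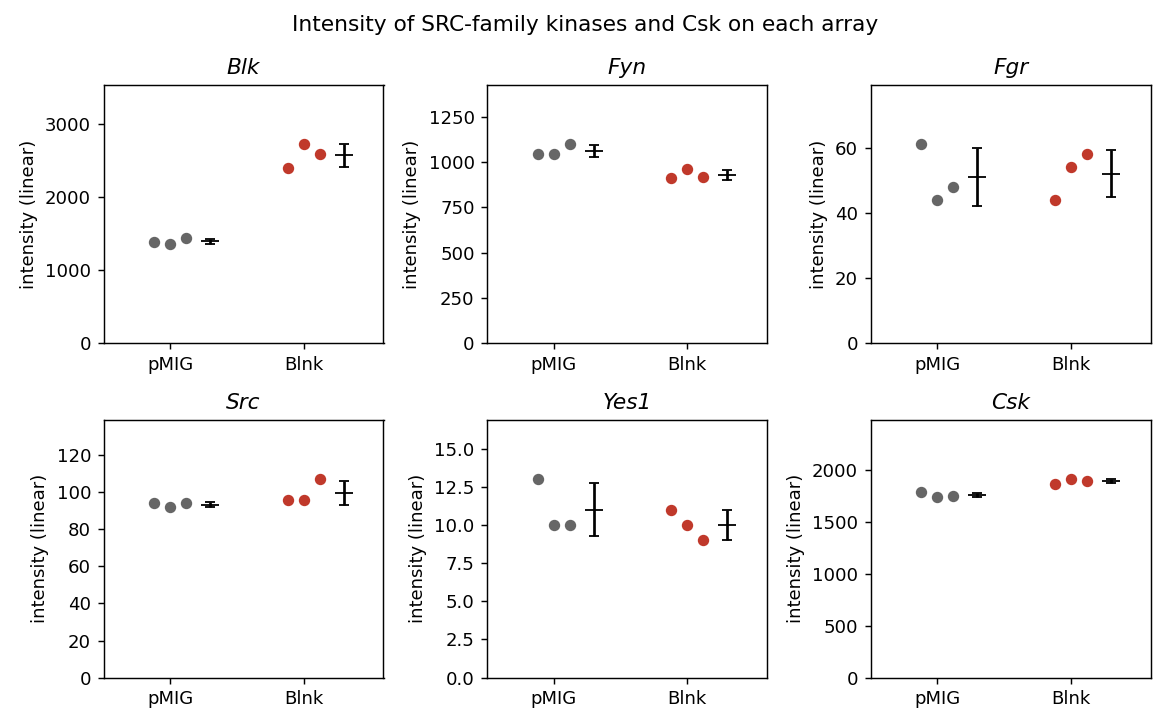
Linear array intensity (vertical axes, each from 0) of the 6 genes in the 3 pMIG samples (grey) and the 3 Blnk samples (red), with replicates 1 to 3 from left to right. Bars beside the points are mean ± SD; Blk stands at 1364 to 1436 with pMIG and at 2402 to 2724 with Blnk, while the other genes differ little between the groups.

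Blk, which lies on chromosome 14 (chr14:63372837-63417187, GRCm38.p6), showed the clear separation. Its intensity was 1379, 1364 and 1436 in the pMIG samples and 2402, 2724 and 2593 in the Blnk samples. Every Blnk sample was above every pMIG sample, and the lowest Blnk value exceeded the highest pMIG value by far more than the range within either group. The group means were 1393 ± 38.0 and 2573 ± 162 (SD, n = 3), a 1.85-fold rise (95% interval 1.64 to 2.08). On the log2 scale the rise was 0.88 (SE 0.0737; limma adjusted p = 0.000649), the 113th largest rise among the 19938 genes and the 90th smallest p-value. The rise held with each array left out in turn, with log2 values of 0.84 to 0.93 and adjusted p of 0.00389 to 0.00850. It also held under every other setting tried, down to 0.82 after repeated quantile normalization. In bulk RNA of sorted cells, more Blk transcript per cell and more cells that make it cannot be told apart.

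Fyn, a broadly expressed family member on chromosome 10 (chr10:39369743-39565381, GRCm38.p6), stood lower with Blnk but did not pass. Its intensity was 1046, 1044 and 1099 in the pMIG samples and 913, 963 and 918 in the Blnk samples. The groups did not overlap, and all Blnk values were below all pMIG values. The means of 1063 ± 31.2 and 931 ± 27.5 (SD, n = 3) correspond to a log2 change of -0.19 (SE 0.0659; limma adjusted p = 0.211). The difference was 0.876-fold, with an unadjusted 95% interval of 0.788 to 0.974. Its sign was negative under all 14 alternative settings and its adjusted p lay between 0.0547 and 0.433. One probe covers the gene, so the splice forms of Fyn were not told apart.

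Csk, the negative regulator, lies on chromosome 9 (chr9:57626646-57653631, GRCm38.p6) and was nearly the same in both groups. It read 1784, 1744 and 1753 in the pMIG samples and 1869, 1911 and 1893 in the Blnk samples. The Blnk samples were all above the pMIG samples, by a small margin. The means were 1760 ± 21.0 and 1891 ± 21.1 (SD, n = 3), a log2 change of 0.10 (SE 0.0618; limma adjusted p = 0.508). The 95% interval of the fold, 0.973 to 1.19, runs from a slight fall to a rise that is smaller than the lower end of the Blk interval. Although the samples of a group agreed closely, limma's moderated error, which borrows from all genes, is wider than the spread of these 6 values alone. The log2 change lay between 0.03 after repeated quantile normalization and 0.11, and passed under no setting.

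Src, Fgr and Yes1 did not pass either, and Fgr and Yes1 were dim. Src, the founding member of the family (chr2:157423906-157471838, GRCm38.p6), read 94, 92 and 94 in the pMIG samples and 96, 96 and 107 in the Blnk samples. The groups were separate by 2 units of intensity, and 1 array, Blnk 3, stood above the other Blnk samples. The log2 change was 0.09 (SE 0.0720; limma adjusted p = 0.627), and 0.04 without Blnk 3. The 95% interval of its fold was 0.950 to 1.20.

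Fgr, largely a kinase of myeloid cells (chr4:132974095-133001893, GRCm38.p6), read 61, 44 and 48 with pMIG and 44, 54 and 58 with Blnk. The groups overlapped throughout. The log2 change was 0.03 (SE 0.146; limma adjusted p = 0.954), its 95% interval of 0.808 to 1.29-fold was the widest of the 6, and its sign turned when arrays were centred on their medians (-0.0028) or without pMIG 2 (-0.07), pMIG 3 (-0.0043) or Blnk 3 (-0.05).

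Yes1, a close relative of Src (chr5:32611171-32687066, GRCm38.p6), read 13, 10 and 10 with pMIG and 11, 10 and 9 with Blnk. The groups overlapped, and their means differed by a single unit of the rounded scale, which at this level is a step of 0.13 on the log2 scale. The log2 change was -0.13 (SE 0.125; limma adjusted p = 0.707). The 95% interval of its fold was 0.747 to 1.12, so a change of the size of the Blk rise lies outside it, but the level is at the dim end of the array, and whether it exceeds background was not tested.

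**Figure D2:**
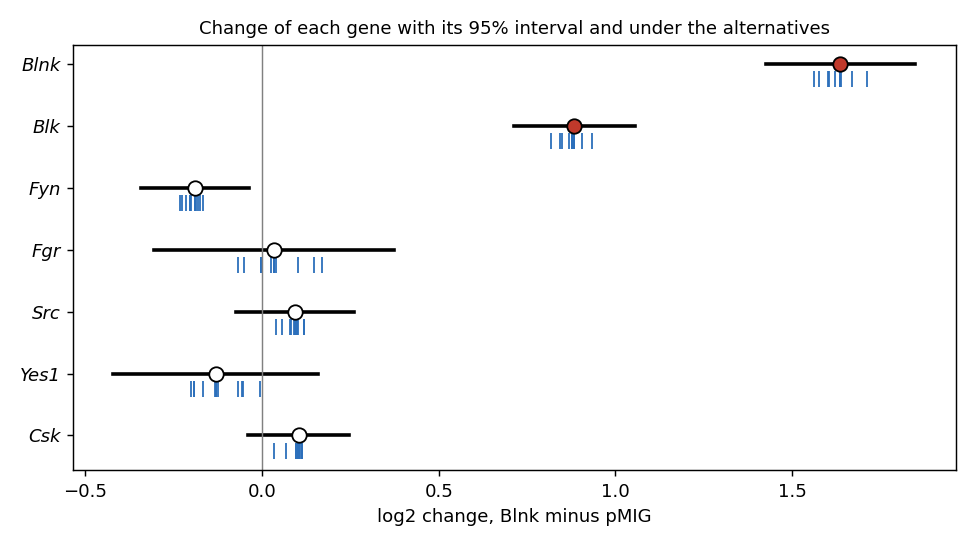
Log2 change, Blnk minus pMIG (horizontal axis), of Blnk and the 6 genes. Circles are the estimates (red where the adjusted p is under 0.05), black lines the 95% intervals and blue ticks the values under up to 14 alternative settings; the Blk interval lies apart from 0 and from the intervals of the other 5 genes.

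The change of Blk was set against that of each other gene by the difference of their log2 values on each array. Blk rose by 1.07 (SE 0.0348) more than Fyn and by 0.78 (SE 0.0505) more than Csk. The difference was 0.79 (SE 0.0716) against Src, 0.85 (SE 0.167) against Fgr and 1.01 (SE 0.182) against Yes1. In each of the 5 pairs the 3 Blnk samples were all above the 3 pMIG samples, and the two-sided exact permutation test gave p = 0.1, the smallest that 3 against 3 samples allow (0.1 adjusted over the 5 pairs). The exact test therefore cannot place these differences below 0.05, however large they are against their SE.

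Genes with values most like those of Blk over the 6 arrays were Cd52, a small surface glycoprotein of lymphocytes, Chst15, a sulfotransferase, Ceacam1, an adhesion receptor with an inhibitory tail, and Nfkbie, an inhibitor of NF-kB. Likeness was measured as the root mean square distance between log2 values, each centred on the mean of its gene, over the 6 arrays. The distances were 0.0334 for Cd52, 0.0337 for Chst15, 0.0384 for Ceacam1 and 0.0448 for Nfkbie. Cd52 read 1896 ± 79.2 with pMIG and 3596 ± 217 with Blnk (SD, n = 3), and Nfkbie 297 ± 13.3 and 580 ± 34.0. All 4 rose with Blnk, by 0.87 (Chst15) to 0.97 (Nfkbie) on the log2 scale, which the measure of likeness brings about.

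**Figure D3:**
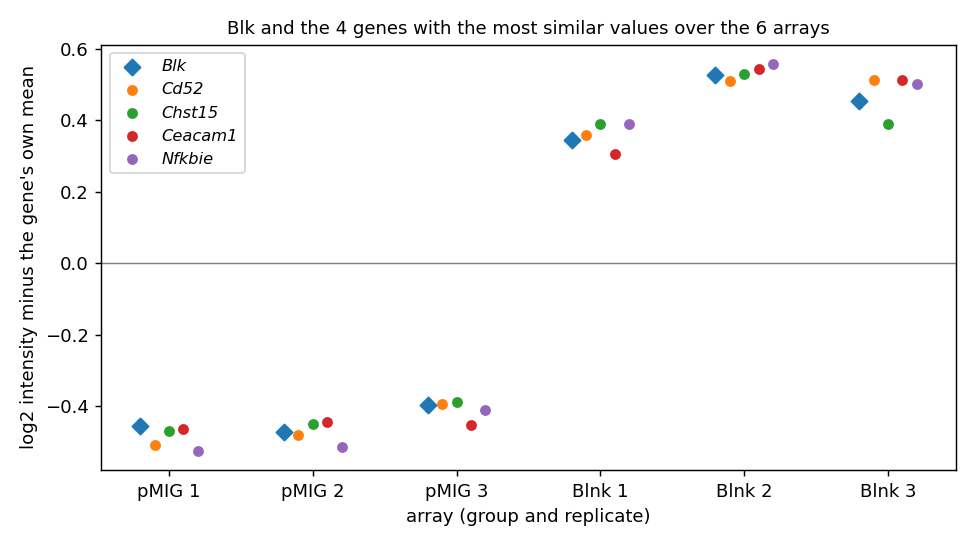
Log2 intensity minus the mean of each gene (vertical axis) on the 6 arrays (horizontal axis) for Blk (diamonds) and the 4 genes closest to it (circles). All 5 genes lie below 0 on the 3 pMIG arrays and above 0 on the 3 Blnk arrays, and each has its lowest value among the Blnk arrays on Blnk 1.

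Among genes that set the activity of SRC-family kinases, 3 of 23 measured rose, 0 fell and 20 did not pass (median log2 change 0.12, beside 0 for all genes and 3.61% of all genes called). All 3 encode tyrosine phosphatases, of which the list holds many. The other tyrosine phosphatases on it did not pass. Among them were Ptpn11 (limma adjusted p = 0.456), Ptpra (0.576), Ptpn2 (0.613), Ptpn12 (0.771) and Ptpre (0.842). Ptprj (CD148), a receptor phosphatase that acts on the inhibitory tyrosine, read 860, 943 and 915 with pMIG and 1589, 1689 and 1746 with Blnk. The groups were well apart, with a log2 rise of 0.89 (SE 0.0731; limma adjusted p = 0.000623) that passed under all 14 alternatives.

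Ptpn22, a cytoplasmic phosphatase that binds CSK and dephosphorylates the activation loop of SRC-family kinases, read 126, 177 and 159 with pMIG and 296, 264 and 294 with Blnk. Its log2 rise was 0.90 (SE 0.127; limma adjusted p = 0.00886). The third was Ptpn1, an endoplasmic reticulum phosphatase, at 0.46 (SE 0.0642; limma adjusted p = 0.00821). Ptpn1 did not pass without pMIG 3 (0.0538), nor Ptpn22 without pMIG 3 (0.0589), Blnk 1 (0.0668) or Blnk 3 (0.0661), so that 1 regulator remained without pMIG 3. Ptpn6 (SHP-1), the phosphatase of inhibitory receptors, stood just outside at 0.29 (adjusted p = 0.0508), followed by the ubiquitin ligases Cbl (0.33, adjusted p = 0.0773) and Cblb (0.32, adjusted p = 0.0799).

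Neither Pag1, which places CSK at the membrane, nor Ptprc, which encodes CD45 itself, passed. Pag1, the transmembrane anchor that recruits CSK, read 259, 242 and 250 with pMIG and 227, 214 and 206 with Blnk. Its groups did not overlap, and it was lower with Blnk by a log2 change of -0.22 (adjusted p = 0.187). Ptprc (CD45) stood at 0.25 (adjusted p = 0.116). Both were picked for their role after their values were seen. Of the more distant kinases, Srms (0.17), Ptk6 (0.11), Frk (-0.09) and the CSK relative Matk (-0.01) did not pass, with adjusted p of 0.630 to 0.989, and all 4 lay below the median gene intensity. With limma 0 of these 4 reached even an unadjusted p under 0.05.

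Partners and substrates of these kinases in B cells rose in part. Of 23 measured, 9 rose, 0 fell and 14 did not pass (39.1% called, beside 3.61% of all genes; median log2 change 0.32). The count includes Blnk itself, and the list covers the pathway in which earlier results of these data had already shown rises, so it is no independent evidence of their direction. Bank1, a scaffold that binds BLK, read 229, 240 and 247 with pMIG and 503, 528 and 520 with Blnk, a log2 rise of 1.12 (SE 0.0669; limma adjusted p = 0.000127). Syk, the kinase recruited to receptor tails that SRC-family kinases have phosphorylated, read 1052, 1032 and 1042 with pMIG and 1444, 1620 and 1579 with Blnk, a rise of 0.57 (SE 0.0712; limma adjusted p = 0.00502). Both pairs of groups were fully separate.

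The transmembrane adaptor Lat2 rose by 1.22 on the log2 scale. Of the receptors, Cd72 rose by 0.63, Pecam1 by 0.64 and Fcgr2b, the inhibitory Fc receptor, by 0.51, while Cd22 (0.26, adjusted p = 0.200), Pirb (0.34, adjusted p = 0.226) and Cd5 (0.26, adjusted p = 0.290), named after their values were seen, did not pass. The receptor chain Cd79a rose by 0.31 and the cytoskeletal substrate Hcls1 by 0.33, both close to the threshold (adjusted p of 0.0468 and 0.0319). Neither of these passed with any 1 array left out, nor after repeated quantile normalization or median centring, and Fcgr2b did not pass without pMIG 3 (0.0529) or Blnk 2 (0.0505). The list had 6 to 8 members up with 1 array left out, the lowest without pMIG 3 or Blnk 2. Just outside the threshold were Lcp2 (SLP-76), the T-cell and myeloid relative of Blnk (-0.33, adjusted p = 0.0517), Cd79b (0.35, adjusted p = 0.0616) and the sialic acid receptor Siglecg (0.37, adjusted p = 0.0757).

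Substrates in adhesion and the cytoskeleton, on which SRC, YES1 and FYN act in many cell types, changed in 1 case. Of 14 measured, 1 rose and 0 fell (7.14% called, beside 3.61% of all genes; median log2 change 0.02), and with 14 members a single call is near that background. Vcl (vinculin), which links integrin sites to actin, read 201, 219 and 198 with pMIG and 458, 424 and 433 with Blnk, a rise of 1.09 (SE 0.0732; limma adjusted p = 0.000220). It passed under all 14 alternatives. Paxillin (Pxn, 0.27, adjusted p = 0.0731), the neuronal adaptor Dab1 (-0.17, adjusted p = 0.450) and talin (Tln1, 0.11, adjusted p = 0.510) did not pass.

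**Figure D4:**
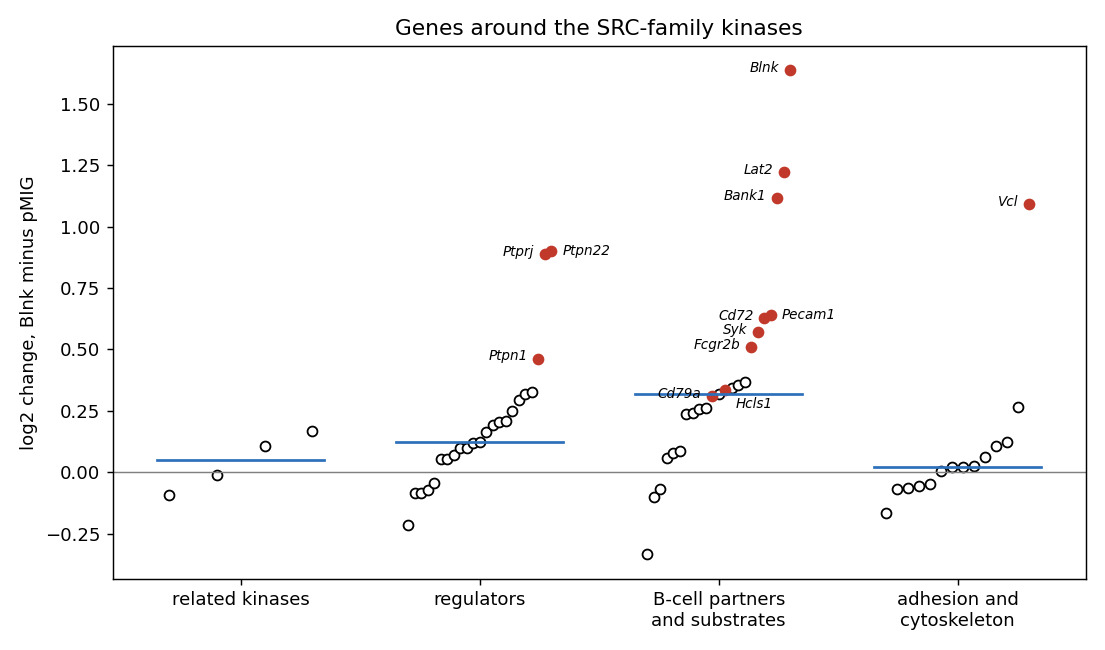
Log2 change, Blnk minus pMIG (vertical axis), of the measured genes in 4 lists around the SRC-family kinases, sorted within each list. Red named points passed an adjusted p of 0.05, open points did not, and blue lines are list medians; 9 partners, 3 regulators, 1 adhesion gene and 0 related kinases passed, all upward.

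Markers of other cell types that use these kinases were mostly dim. The share called was 7.14% of the myeloid list and 7.69% of the T and NK cell list, beside 3.61% of all genes. Of 14 myeloid markers, 13 lay below the median gene intensity and 1 rose, the Fc receptor Fcgr1 (from 145 ± 13.4 to 242 ± 13.9; SD, n = 3). The next brightest, Cebpa, stood at 54.3 ± 10.7 and 56.7 ± 3.79. The summed intensity of the list, Fcgr1 included, was 566 to 596 with pMIG and 687 to 702 with Blnk. Of 13 T and NK cell markers, 9 lay below the median gene intensity and 1 rose, the adhesion receptor Cd2 (from 1415 ± 54.6 to 2355 ± 294), which mouse B cells also carry. Cd8a followed at 170 ± 18.7 and 191 ± 60.8, and then Zap70 at 167 ± 5.86 and 164 ± 6.66. That list, Cd2 included, summed to 2028 to 2174 with pMIG and 2804 to 3352 with Blnk, and its other 12 markers were not called. The chains of the CD3 complex, picked as defining T-cell markers after their values were seen, were Cd3e at 80.7 and 81.3 (pMIG and Blnk means), Cd247 at 39.7 and 40.7, Cd3d at 23.7 in both groups and Cd3g at 16.3 and 17.0.

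Erythroid and megakaryocyte markers (7 measured, with Itga2b and Epor the brightest at 73.7 and 69.0 with pMIG and 75.3 and 73.0 with Blnk) summed to 282 to 321 and 292 to 338, with 0 called. Stromal and endothelial markers (10 measured, led by Pecam1, which B cells share, and Col1a1 at 128 ± 19.4 and 117 ± 11.0) summed to 927 to 1008 and 1176 to 1288. Pecam1 was the 1 called (10% of this list, beside 3.61% of all genes). The part of other cells in the Blk rise was not tested.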

How the data were processed

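Total RNA of 6 samples was measured on 6 arrays. The authors deposited intensities, linear and rounded to whole numbers, and per the submitters' processing notes RMA was used (no version given). Log2 was taken with nothing added. Of 35421 probes, 21789 had 1 gene symbol in the platform annotation, 1621 several and 12011 were not listed. The brightest single-gene probe gave 19938 genes. Array medians were 67.0 to 70.0, 13.7% to 14.1% of probes were below an intensity of 16, and the number of arrays limits the precision.

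The fit used limma 3.58.1 (lmFit, then eBayes) under R 4.3.3 with no covariate beside the group, Benjamini-Hochberg adjustment over all genes, a threshold of 0.05 and two-sided tests. Intervals are 95% limma intervals, not adjusted. The script was tested on simulated data. Gene positions come from RefSeq's GRCm38.p6 table, and the probes' Entrez identifiers matched it for all 6 genes. The members, the 4 pathway lists and the 5 marker lists were chosen with earlier results of these data known. The text names the 6 genes, Blnk, called genes of the pathway lists with up to 3 more per list, called markers, the 2 brightest genes per marker list and the 4 genes most like Blk; a few others, such as Dntt, Pag1, Matk and the CD3 chains, were chosen later. The alternatives, 14 in all, were a replicate block, repeated quantile normalization, median centring, leaving out genes below the 40th percentile, adding 16 before log2, averaging probes, an intensity trend, array weights and leaving out each of 6 arrays. Probes can also read transcripts of close relatives.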

Additional observations from a re-analysis of the deposited data

How the results depend on the processing

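Blk passed and Fyn, Src, Yes1 and Csk kept their sign without passing under every alternative that gave a value. Fgr did not pass under any, and its log2 change turned to -0.0028 with median centring and, with 1 array left out, ranged from -0.067 (without pMIG 2) to 0.17, being -0.0043 without pMIG 3 and -0.051 without Blnk 3. Yes1 and Fgr have no value where dim genes were left out, and averaging probes changes nothing for genes with 1 probe. Pairing by replicate number was not seen: deviations of same-numbered samples correlated at -0.19, 0.06 and -0.12 over genes. Those of differently numbered samples correlated at -0.21 (pMIG 2 with Blnk 3) to 0.28 (pMIG 1 with Blnk 3). Whether samples of the 2 groups share a source was not tested. With the replicate block Blk passed (log2 0.88, adjusted p = 0.0131), while the genes called over the whole array numbered 208 up and 81 down in place of 500 and 220, 1 regulator rose in place of 3 and 6 partners in place of 9. Calls lost with that block were Ptpn1 (adjusted p = 0.0626), Ptpn22 (0.0601), Fcgr2b (0.0519), Hcls1 (0.144) and Cd79a (0.176). With dim genes left out the array had 807 up and 421 down, with an intensity trend 891 and 422, and with 16 added before log2 741 and 359. With 1 array left out it had 195 to 304 up and 72 to 133 down, the lowest without pMIG 3. In each of those 3 settings (dim genes left out, trend, 16 added) 7 regulators and 2 adhesion genes rose, and 2 adhesion genes also rose with array weights. Between 1 and 3 regulators, 6 and 8 partners and 1 adhesion gene rose with 1 array left out. With the trend 14 partners rose. Of the partners 1 fell in place of 0 under that trend, repeated quantile normalization, median centring, array weights, 16 added or dim genes left out. The cause of these shifts was not tested. Centring moved the median change of all genes by -0.04.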

Other observations

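Within each group the 3 arrays fell in the same order for Blnk, Blk and Fyn. In the pMIG group pMIG 2 was lowest and pMIG 3 highest, and in the Blnk group Blnk 1 was lowest and Blnk 2 highest. Fyn shared this order although it stood lower, not higher, with Blnk. Of 14437 genes without ties within a group, 224 (1.55%) had that order in both groups. So had 23 of 630 (3.65%) of those that changed in either direction and 17 of 438 (3.88%) of those that rose with Blnk. Blnk itself was not counted among the changed genes. Replicates have no order of their own, and whether the amount of Blnk and that of Blk move together within a group was not tested. The pattern was noticed after the values were seen.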
